A study of Mus musculus with 2 samples.

Results

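The 7 genes *Apln*, *Aplnr*, *Angpt1*, *Angpt2*, *Tek*, *Tie1* and *Ptprb* were taken by name from the 27998 genes counted in a scRNA-seq experiment on mouse lungs, and all 7 were found in both libraries. They encode 3 ligands, of the apelin and angiopoietin families, and 4 receptors or regulators of those receptors. The choice rested on their names and known roles and used no threshold on a measured value, but was made with earlier results of these data known. Lungs came from C57BL/6 mice aged 2 weeks. The control mice breathed room air with 21% O2, and the hyperoxia mice breathed 80% O2 from postnatal day 0 to day 14, an exposure used as a model of bronchopulmonary dysplasia (BPD). Neither group carried a transgene or received an agent other than oxygen according to the labels. The lungs of 8 mice were mixed into 1 library per group, so each value below comes from 1 library, neither group has a replicate, and no test between groups was possible. The mice were pooled before capture, so their sex and the number of cells each gave are not known.

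Apelin, the peptide made from *Apln*, binds the G protein-coupled receptor encoded by *Aplnr*, and the pair acts in vessel growth and calibre. In the lung capillary bed the ligand is a known mark of aerocytes (aCap), the large thin cells over which gas is exchanged, and the receptor of general capillary cells (gCap), which act as progenitors. Angiopoietin 1 from perivascular cells activates the receptor tyrosine kinase TIE2 (*Tek*) on endothelial cells (ECs) and steadies the vessel wall. Angiopoietin 2, which ECs can store and release, acts on the same receptor as a context-dependent antagonist. TIE1 is a partner of TIE2 that modulates its signalling, and the phosphatase VE-PTP (*Ptprb*) removes phosphate from TIE2 and so restrains it.

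After filtering, 3680 of 4234 barcodes in room air and 10472 of 13223 in hyperoxia were kept as cells, with medians of 8070.5 and 7194 UMIs (unique molecular identifiers, each counting 1 captured RNA molecule). The libraries held 39593888 and 111934936 UMIs and shared 17 barcodes, 12 of them among kept cells. Cell types were rebuilt by clustering both libraries together without the 7 genes, and are called "-like" because marker genes named them. In each of the 16 types with at least 50 cells in both libraries, every marker found in the files was higher than in the rest of the cells. There were 1000 EC-like cells from room air and 2558 from hyperoxia, and 802 and 2349 stromal-like cells. Below, where a pair of values is given, room air comes first. Levels are a gene's summed UMIs per 1000000 summed UMIs of a type (CPM), with exact Poisson 95% intervals in parentheses. Intervals cover counting error only and say nothing of differences between mice or between preparations. A gene is called higher or lower where its log2 ratio (hyperoxia over room air) reached 1 in size at a mean level of at least 10 CPM, a rule of size and not a test. B-like cells, which should lack all 7 genes, give the background from free RNA.

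Several types fell into clusters held almost wholly by 1 library. Of the gCap-like cells, cluster 2 held 542 room air and 17 hyperoxia cells, cluster 0 held 3 and 671, cluster 5 held 86 and 142, and cluster 11 held 17 and 101. Of the aCap-like cells, cluster 9 held 107 and 31, cluster 4 held 31 and 206, cluster 1 held 11 and 559, cluster 3 held 1 and 239, and cluster 10 held 7 and 129. Every alveolar fibroblast-like and myofibroblast-like cell lay in a cluster of which 1 library made up 90% or more. The pericyte-like clusters held 92 and 2, 4 and 128, and 20 and 50 cells. With 1 library per group, a difference between exposures and a difference between libraries cannot be told apart in any type or cluster. In types split in this way the pooled ratio also compares different clusters. Ratios within clusters that held at least 15 cells of each library are therefore given beside the pooled ones for the capillary and pericyte-like types. They do not separate exposure from library. Haemoglobin genes led aCap-like cluster 9, and DNA replication genes led gCap-like cluster 11, beside the gCap marker *Kit*. In both libraries the cells of aCap-like cluster 4 and gCap-like cluster 5 were shallow, with fewer UMIs per cell on average than the library medians. Ratios within these clusters rest on such cells and may not stand for deeper capillary cells.

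*Apln* (ENSMUSG00000037010, GRCm38, chromosome X, 48025146 to 48034853, minus strand) encodes the ligand apelin. RefSeq promoter entries (GRCm38.p6) matched 3 of the 7 genes, *Apln*, *Tek* and *Tie1*, and the 250 bases before the *Apln* start are printed because this ligand set the aCap-like cells apart from every other EC-like type. The stretch lies at chrX:48034854-48035103 and is written 5′ to 3′ on the gene's own minus strand. Capitals mark the one match to AGGAAG, a core bound by ETS factors, which here reads CTTCCT because it lies on the opposite strand, 113 to 108 bases before the start.

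Apln promoter: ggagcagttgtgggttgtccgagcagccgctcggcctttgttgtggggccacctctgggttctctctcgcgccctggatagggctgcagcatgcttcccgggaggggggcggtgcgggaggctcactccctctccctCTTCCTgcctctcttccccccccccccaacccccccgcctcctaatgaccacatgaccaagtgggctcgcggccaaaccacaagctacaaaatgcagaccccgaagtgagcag

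AGGAAG or its reverse complement occurred in 29.5% of 32817 promoters of the same length. *Tie1* also held 1 match, 219 to 214 bases before its start, and *Tek* held none. The core of the hypoxia response element, ACGTG, had no match on either strand in these 250 bases of *Apln*, *Tek* or *Tie1*, and occurred in 16.6% of promoters. The same was true of the FOXO motif GTAAACA, found in 3.16% of promoters on either strand. The GATA motif AGATAA, found in 9.99% of promoters on either strand, was likewise without a match in the 3 genes. No match overlapped another motif searched. A match is a run of letters and not a measured binding site.

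*Apln* was at 696 CPM (651 to 743) in the aCap-like cells of room air and at 598 CPM (582 to 614) in those of hyperoxia. In gCap-like cells it was at 44.3 CPM (38.7 to 50.5) and 113 CPM (106 to 120.5). These were the highest and the second highest of the 16 types in both libraries, with intervals apart from each other and from every type below. The next types, AT1-like in room air (7.06 CPM) and neutrophil-like in hyperoxia (10.6 CPM), overlapped the background in B-like cells of 4.55 CPM (2.18 to 8.36) and 7.23 CPM (4.98 to 10.2). Artery-like cells had 0 *Apln* UMIs in 59 cells of room air, a count that allows up to 5.77 CPM, and 4.903 CPM (1.97 to 10.1) in 147 cells of hyperoxia. Thus the ligand was an aCap-like transcript with a lower gCap-like level, and arteries were not distinguishable from the background.

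**Figure D1:**
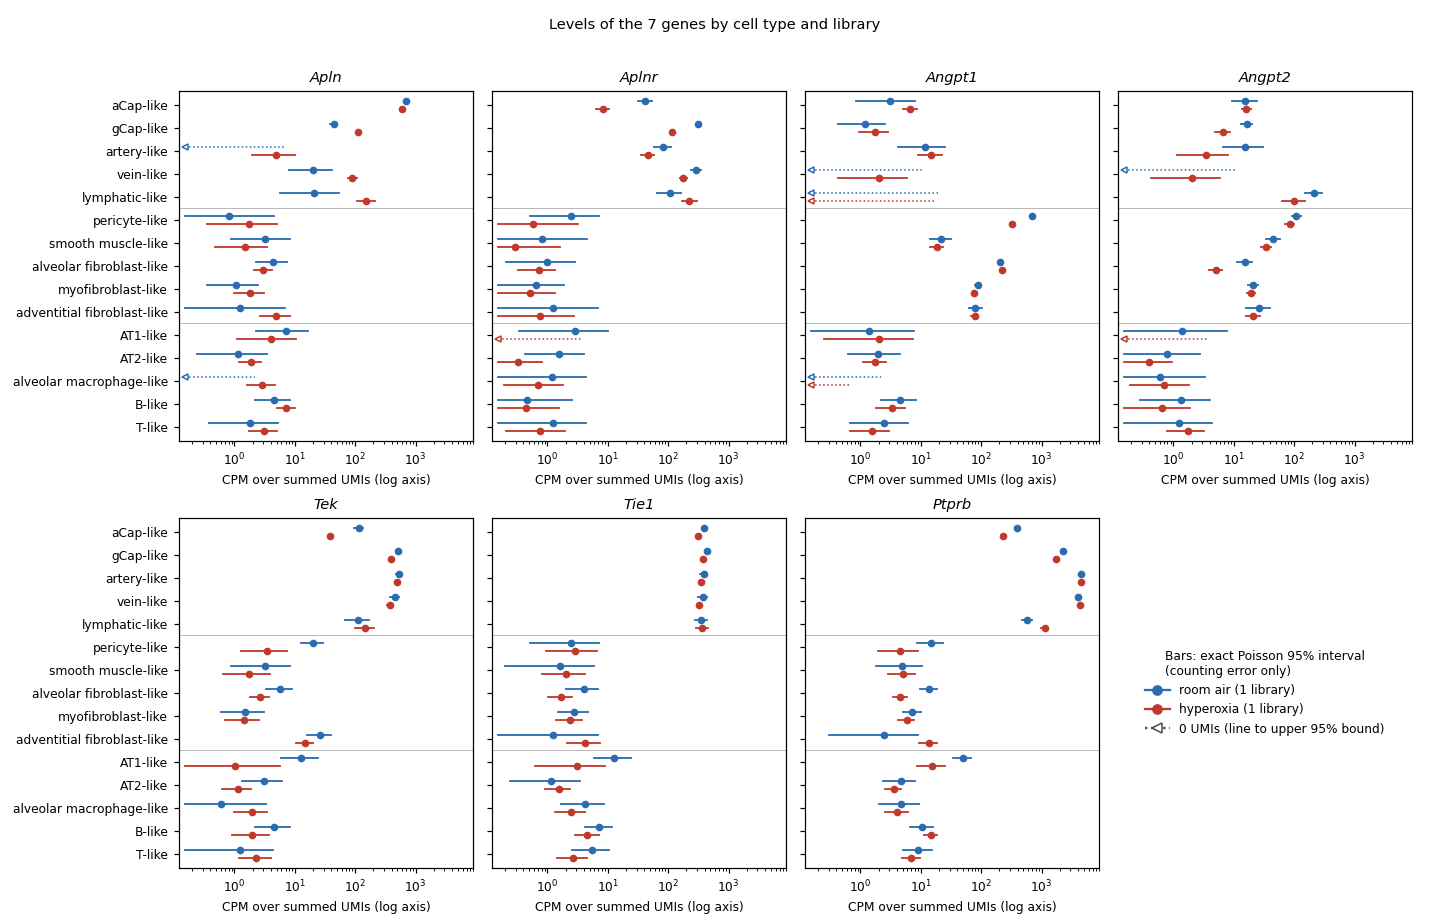
Level of each of the 7 genes in 15 cell types, in CPM over summed UMIs on a log axis, for the room air library (blue) and the hyperoxia library (red), with exact Poisson 95% intervals cut at the left edge of the axis and open triangles for 0 UMIs. *Apln* peaks in aCap-like cells and *Angpt1* in pericyte-like cells. *Aplnr* peaks in gCap-like and vein-like cells in room air, and in lymphatic-like and vein-like cells in hyperoxia. *Tek*, *Tie1* and *Ptprb* stand far above the other types in EC-like types.

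Over all EC-like cells *Apln* was at 154 CPM (146 to 164) under room air and 316 CPM (308 to 324) under hyperoxia, or a log2 ratio of 1.03 (0.94 to 1.12). Within the aCap-like cells, which held 69.6% and 79.3% of each library's *Apln* UMIs, the log2 ratio was -0.22 (-0.32 to -0.12). In the aCap-like clusters shared by the libraries it was -0.02 (-0.25 to 0.21) in cluster 9 and 0.04 (-0.63 to 0.78) in the shallow cells of cluster 4, both with intervals that include 0. Within the gCap-like cells it was 1.35 (1.14 to 1.57). The share of aCap-like cells among the EC-like cells was 15.7% in room air and 45.5% in hyperoxia, and that of gCap-like cells 64.8% and 36.4%. With the levels of room air and the makeup of hyperoxia, the log2 ratio over all EC-like cells came to 1.08, and with the levels of hyperoxia and the makeup of room air it came to 0.27. Makeup alone thus came near the measured ratio of *Apln*, and levels alone, which include the higher gCap-like level, gave a smaller one. This split takes aCap-like cells to be the same kind of cell in both libraries. Of those of hyperoxia, 79.6% lay in clusters of which 1 library made up 90% or more. Why *Apln* was higher over all EC-like cells was not tested. Since *Apln* was left out of the clustering, its own level did not sort the cells.

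*Angpt1*, at 2.74 and 4.97 CPM, did not pass the level filter in EC-like cells. Of the 6 members that did, *Apln* was called higher (0.99 and so not called with no doublet removal) and *Aplnr* called lower, while 1.82% of 8338 genes were called higher and 2.42% lower. The median log2 ratio of these 6 was -0.70, with 5 below 0, beside 0.02 and 48.4% below 0 over all genes that passed. In gCap-like cells 1 member was called higher (*Apln*, against 1.97% of genes) and 2 lower (*Aplnr* and *Angpt2*, against 2.48%), of which *Angpt2* was not called in the cells without stromal UMIs. In aCap-like cells none was called higher (background 2.05%) and 2 were called lower (*Aplnr* and *Tek*, against 2.6%), of which *Tek*, at -0.94, was not called with no doublet removal. In pericyte-like cells, of the 3 members that passed, *Angpt1* and *Tek* were called lower, against 3.22% of genes, and none higher, against 3.33%. In vein-like cells *Apln* was called higher, against 8.42%, and none lower, against 6.88%. In all stromal-like cells *Ptprb* was called lower, against 1.3%, and none higher, against 1.65%. In alveolar fibroblast-like cells *Angpt2* was called lower, against 1.86%, and none higher, against 2.37%. No member was called in artery-like cells (5.94% of genes higher and 4.66% lower), smooth muscle-like cells (3.45% and 2.83%), myofibroblast-like cells (1.84% and 1.44%) or adventitial fibroblast-like cells (3.32% and 2.36%). Of the lower calls, *Aplnr* in aCap-like, *Angpt2* in gCap-like and alveolar fibroblast-like, and *Tek* in pericyte-like cells were below 10 CPM in hyperoxia. So was *Ptprb* in stromal-like cells. These passed the level filter only through room air, which favours a lower call.

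The *Apln* of gCap-like cells was carried unequally among its clusters. In cluster 11, the one led by DNA replication genes, it was at 90.98 CPM (50.9 to 150.1) under room air and 245 CPM (218 to 275) under hyperoxia, or a log2 ratio of 1.43 (0.68 to 2.29). In the shallow cells of cluster 5 the levels were 62.1 CPM (33.04 to 106) and 84.4 CPM (60.3 to 115), for a log2 ratio of 0.44 (-0.49 to 1.47) whose interval includes 0. Without cluster 11, a choice made after its values were seen, the gCap-like log2 ratio was 1.08 (0.86 to 1.31). Cluster 2, the main one of room air, had 41.5 CPM (35.9 to 47.8) in room air, and cluster 0, the main one of hyperoxia, had 92.8 CPM (85.4 to 101) in hyperoxia. With finer clustering (resolution 2) the gCap-like log2 ratio was 0.69 (0.43 to 0.95), below the size that counts as a call. Thinned to 2000 UMIs per cell, the share of gCap-like cells with an *Apln* UMI was 6.53% (4.702 to 8.78) under room air and 12.7% (10.6 to 15.1) under hyperoxia, from 14.97% (12.3 to 17.95) and 27.9% (25.1 to 30.9) unthinned. Thinned B-like cells gave 0.266% (0.00673 to 1.47) and 1.25% (0.702 to 2.06), at unthinned median depths of 4493 and 2913 UMIs against 7474 and 8711 in gCap-like cells. Thinning left out 35 and 27 shallower gCap-like cells.

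The gCap-like cells with an *Apln* UMI also held more RNA of the 8 aCap markers. In room air the summed level of those markers was 508 CPM in the 97 gCap-like cells with an *Apln* UMI and 179.8 CPM in the 551 without. In hyperoxia it was 429 CPM in 260 cells and 311 CPM in 671. For comparison, aCap-like cells with an *Apln* UMI had 9088 and 5003 CPM. The summed level of the 7 gCap markers in gCap-like cells with and without *Apln* was 6061 and 6366 CPM in room air, and 6841 and 7781 CPM in hyperoxia. These marker genes helped to name the types, so the values describe the cells within a type and are no test of the type. Cells with an *Apln* UMI were also the deeper ones, with medians of 9224 against 7147 UMIs in room air and 9700 against 8277 in hyperoxia.

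Among the EC-like types with under 50 cells in a library, vein-like cells (33 and 113 cells) had *Apln* at 19.7 CPM (7.91 to 40.5) and 89.9 CPM (75.2 to 107), or a log2 ratio of 2.19 (1.11 to 3.53). Lymphatic-like cells (14 and 24 cells) had 4 and 34 *Apln* UMIs. In hyperoxia these lay in 5 of the 24 lymphatic-like cells.

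**Figure D2:**
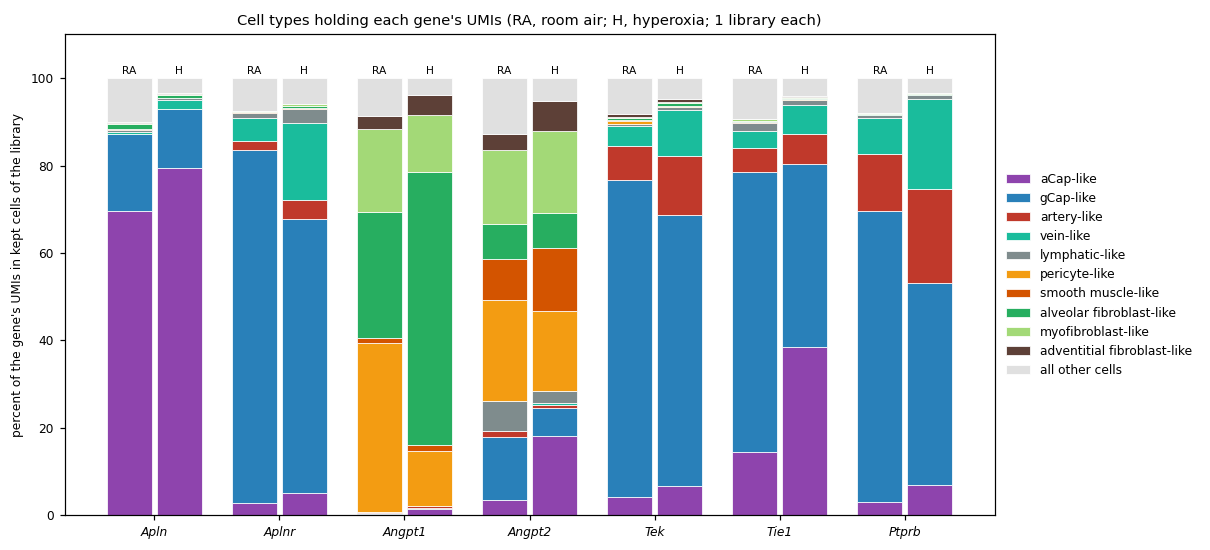
Percent of each gene's UMIs that each type held, in the room air (RA) and hyperoxia (H) libraries, as stacked bars that start at 0. aCap-like cells held 69.6% and 79.3% of *Apln*, and gCap-like cells held 80.9% and 62.9% of *Aplnr*. The shares depend on how many cells of each type were captured.

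*Aplnr* (ENSMUSG00000044338, chromosome 2, 85136225 to 85139923, plus strand) encodes the apelin receptor. Over all EC-like cells it was at 243 CPM (232 to 255) under room air and 69.2 CPM (65.6 to 72.9) under hyperoxia, or a log2 ratio of -1.81 (-1.91 to -1.71), the largest in size of the 6 members tested there. In gCap-like cells the levels were 315 CPM (300.04 to 331) and 116 CPM (109 to 124), for a log2 ratio of -1.44 (-1.56 to -1.33). The receptor was therefore lower in hyperoxia in the very type that held most of it. In aCap-like cells it was at 41.9 CPM (31.5 to 54.7) and 8.25 CPM (6.48 to 10.4), for a log2 ratio of -2.35 (-2.87 to -1.81) and of -1.67 (-3.60 to -0.22) within cluster 9. Artery-like cells had 80.8 CPM (58.2 to 109) and 45.5 CPM (35.1 to 58.03), or a log2 ratio of -0.83 (-1.41 to -0.23) that was not called and that was 0.70 (-0.57 to 2.16) in the artery-like cells without a UMI of 6 stromal genes (*Col1a1*, *Col1a2*, *Col3a1*, *Mfap4*, *Dcn* and *Pdgfra*). Vein-like cells had 292 CPM (239 to 354) and 179 CPM (157 to 202), or a log2 ratio of -0.71 (-1.05 to -0.37). Lymphatic-like cells went the other way, from 105 CPM (64.2 to 162) to 225 CPM (167 to 297), but on 2 and 14 cells with a UMI.

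In the order of levels over the 16 types, gCap-like, artery-like and aCap-like cells came first in that order in both libraries, each with an interval apart from the next, and no other of the 16 types exceeded 2.88 CPM, beside 0.455 and 0.438 CPM in B-like cells. Vein-like and lymphatic-like cells, too few to be among the 16, had higher levels than gCap-like cells in hyperoxia, 179 and 225 against 116 CPM. The makeup of the EC-like cells went the same way for *Aplnr* as its levels: levels alone gave a log2 ratio of -1.31 and makeup alone -0.49. Each gCap-like cluster with at least 15 cells of both libraries had a lower level in hyperoxia. Cluster 5 had 353 CPM (277 to 443) and 135 CPM (104 to 172), for a log2 ratio of -1.39 (-1.89 to -0.89). Cluster 11 had a log2 ratio of -1.13 (-1.64 to -0.60), and cluster 2, with 17 hyperoxia cells, one of -0.72 (-1.30 to -0.19). Thinned to 2000 UMIs, 43.1% (39.1 to 47.1) of gCap-like cells under room air and 19.4% (16.8 to 22.1) under hyperoxia had an *Aplnr* UMI, from 76.5% (73.1 to 79.8) and 48.98% (45.7 to 52.2) unthinned, while thinned B-like cells gave 0% (0 to 0.976) and 0% (0 to 0.307).

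**Figure D3:**
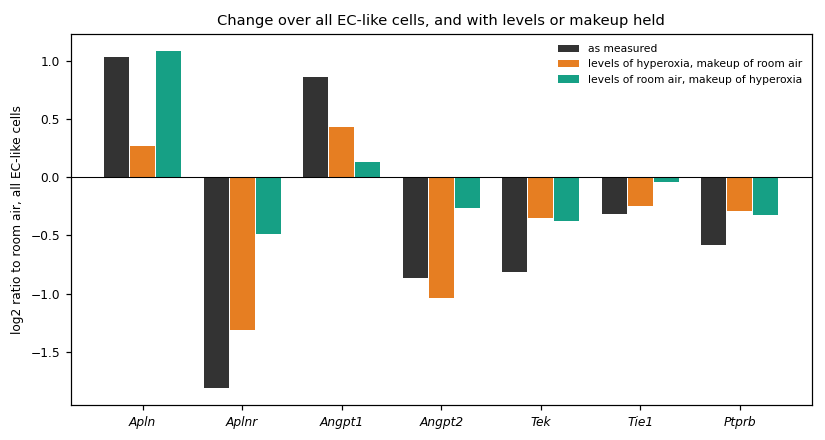
Log2 ratio to room air over all EC-like cells for the 7 genes as measured (dark), with hyperoxia levels in the room air makeup (orange) and with room air levels in the hyperoxia makeup (green); bars start at 0 and have no error bars. For *Apln* makeup alone gives 1.08 and levels alone 0.27, and for *Aplnr* levels alone give -1.31 and makeup alone -0.49. *Angpt1* lies near the background in EC-like cells.

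Ligand and receptor were seen together in a minority of capillary cells. A UMI of both *Apln* and *Aplnr* was found in 12.7% (10.2 to 15.5) of gCap-like cells under room air and 15.8% (13.5 to 18.3) under hyperoxia, and at 2000 UMIs per cell in 3.59% (2.26 to 5.38) and 3.097% (2.07 to 4.45). The intervals overlapped. In aCap-like cells the share with both was 13.4% (8.47 to 19.7) under room air and 2.92% (2.03 to 4.06) under hyperoxia, and 4.00% (1.31 to 9.09) and 0.212% (0.0257 to 0.764) when thinned. A smaller share of the aCap-like cells of hyperoxia thus carried the receptor beside the ligand. The aCap-like cells with an *Aplnr* UMI had a higher summed level of the 7 gCap markers than those without, 3896 against 2279 CPM in room air and 4983 against 3596 CPM in hyperoxia. They were also deeper, with medians of 17117 against 5727 UMIs in room air and 16475 against 7375 in hyperoxia.

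Of 12 listed genes, among them the second ligand *Apela*, the peptidase *Mme*, the arrestins and the transcription factors *Klf2*, *Klf4* and *Mef2c*, 11 were matched in the files and 8 passed the level filter in EC-like cells. None was called, which at shares of 1.82% and 2.42% over all genes is no result about the list. Their median log2 ratio was -0.04 against 0.02 over all genes. The largest ratio was that of *Klf4*, a flow-responsive transcription factor, at 711 and 1176 CPM, for a log2 ratio of 0.73 (0.68 to 0.77). The smallest was that of *Arrb2*, an arrestin, at 17.4 and 9.22 CPM, for a log2 ratio of -0.91 (-1.24 to -0.58). In gCap-like cells *Arrb2*, looked up there after its values were seen, was called lower, at 19.8 and 7.77 CPM, for a log2 ratio of -1.35 (-1.83 to -0.88). There *Arrb2* passed the level filter only through room air. *Apela* had 0 and 0 UMIs in EC-like cells, so apelin was the only ligand of *Aplnr* seen there at this depth.

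*Angpt1* (ENSMUSG00000022309, chromosome 15, 42424723 to 42676977, minus strand) encodes the TIE2 agonist angiopoietin 1. The stromal-like cells held 95.8% and 94.8% of its UMIs. Pericyte-like cells had the highest level in both libraries, 687 CPM (641 to 735) under room air and 329 CPM (302 to 357) under hyperoxia, or a log2 ratio of -1.06 (-1.22 to -0.91). Alveolar fibroblast-like cells came next with 209 CPM (193 to 226) and 226 CPM (217 to 234), or a log2 ratio of 0.11 (-0.01 to 0.24) whose interval includes 0. The pericyte-like level, pooled over clusters held mostly by 1 library, was lower in hyperoxia, while the alveolar fibroblast-like levels were not distinguishable. Myofibroblast-like cells had 87.7 CPM (79.4 to 96.6) and 77.3 CPM (71.3 to 83.8), and smooth muscle-like cells 21.95 CPM (14.5 to 31.9) and 18.5 CPM (14.2 to 23.6). Adventitial fibroblast-like cells, 43 and 211 in number, had 79.99 CPM (61.7 to 102) and 77.8 CPM (67.5 to 89.1). The order pericyte-like, alveolar fibroblast-like, myofibroblast-like and smooth muscle-like was the same in both libraries, with intervals apart between each pair of neighbours.

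Over all stromal-like cells *Angpt1* was at 180.04 CPM (172 to 188) under room air and 151 CPM (146 to 155) under hyperoxia, or a log2 ratio of -0.26 (-0.33 to -0.18). The share of the library's *Angpt1* UMIs held by pericyte-like cells was 38.5% under room air and 12.6% under hyperoxia, and that held by alveolar fibroblast-like cells 28.96% and 62.4%. The main source by UMIs was thus pericyte-like in room air and alveolar fibroblast-like in hyperoxia. Pericyte-like cells were 14.5% and 7.66% of the stromal-like cells, and alveolar fibroblast-like cells 22.1% and 44.5%.

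The pooled pericyte-like ratio set mainly clusters 11 and 9 against each other, each held almost wholly by 1 library. With 2 and 4 cells of the other library, differences within them were not assessed. Cluster 11, with 92 room air and 2 hyperoxia cells, had 822 CPM (765 to 883) in room air. Cluster 9, with 4 and 128 cells, had 369 CPM (336 to 405) in hyperoxia. In cluster 12, the one with at least 15 cells of both libraries, the levels were 266 CPM (205 to 339.6) and 205 CPM (167 to 249.6), for a log2 ratio of -0.37 (-0.84 to 0.10) whose interval includes 0. Removing the expected number of doublets 2 times over gave a pericyte-like log2 ratio of -0.58 (-0.76 to -0.41), below the size of a call. Thinned to 2000 UMIs, 63.8% (54.4 to 72.5) of pericyte-like cells under room air and 43.6% (36.2 to 51.2) under hyperoxia had an *Angpt1* UMI, from 92.2% (85.8 to 96.4) and 75.6% (68.6 to 81.6) unthinned, and thinned B-like cells gave 0.532% (0.0645 to 1.91) and 0.417% (0.136 to 0.971). In EC-like cells *Angpt1* was at 2.74 CPM (1.697 to 4.19) and 4.97 CPM (4.06 to 6.04), close to the 4.55 and 3.29 CPM of B-like cells. Artery-like cells stood somewhat above, with 11.5 CPM (4.23 to 25.1) and 14.7 CPM (9.11 to 22.5). The gene body of *Angpt1* overlaps *Gm17473* on the opposite strand, which was also counted, and whether the counting used strand is not given in the sources used here.

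*Angpt2* (ENSMUSG00000031465, chromosome 8, 18690263 to 18741562, minus strand) encodes angiopoietin 2 and overlaps *Mcph1* on the opposite strand, also counted. Its highest level among the 16 types was again in pericyte-like cells, 109 CPM (91.1 to 129) under room air and 85.1 CPM (71.9 to 99.97) under hyperoxia, or a log2 ratio of -0.35 (-0.70 to -0.01). Smooth muscle-like cells had 44.7 CPM (33.7 to 58.2) and 34.03 CPM (28.1 to 40.8), and myofibroblast-like cells 21.02 CPM (17.1 to 25.6) and 19.5 CPM (16.5 to 22.9). Stromal-like cells, pericyte-like and smooth muscle-like included, held 66.2% and 67.3% of the *Angpt2* UMIs, and EC-like cells 26.9% and 28.4%. At 2 weeks, therefore, most *Angpt2* RNA in these cells was outside the endothelium. The 14 lymphatic-like cells of room air had 210.2 CPM (150.2 to 286) and the 24 of hyperoxia 98.96 CPM (62.02 to 149.8), the highest of the EC-like types on 40 and 22 UMIs. These levels, of a type too small to be among the 16, were above the pericyte-like ones, with intervals apart in room air and overlapping in hyperoxia.

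Over all EC-like cells *Angpt2* was at 20.4 CPM (17.3 to 23.8) under room air and 11.2 CPM (9.77 to 12.7) under hyperoxia, or a log2 ratio of -0.87 (-1.17 to -0.56). In gCap-like cells it was at 16.5 CPM (13.1 to 20.4) and 6.53 CPM (4.89 to 8.55), for a log2 ratio of -1.33 (-1.86 to -0.82). In aCap-like cells it was at 15.5 CPM (9.49 to 23.99) and 16.2 CPM (13.6 to 19.02), for a log2 ratio of 0.06 (-0.62 to 0.81). The gCap-like level was lower in hyperoxia and the aCap-like interval included 0, but the difference between the types was not tested. EC-like cells also held low levels of the 8 stromal markers, 288 CPM in sum under room air and 363 CPM under hyperoxia, with none at 0. Among the 381 and 867 EC-like cells without a UMI of these 6 stromal genes, *Angpt2* was at 13.2 CPM (9.06 to 18.7) and 12.5 CPM (9.77 to 15.7), or a log2 ratio of -0.09 (-0.71 to 0.56). Among the other EC-like cells it was at 23.7 CPM (19.7 to 28.2) and 10.6 CPM (9.04 to 12.5). The cells free of stromal UMIs were also shallower, with medians of 5914 and 6568 UMIs. In gCap-like cells free of stromal UMIs the log2 ratio was -0.68 (-1.73 to 0.36), with an interval that includes 0, and it was below 0 under all 11 alternatives. Within gCap-like cluster 5 it was -2.99 (-6.29 to -0.59) on 7 and 2 UMIs, and the intervals of clusters 2 and 11 included 0. Alveolar fibroblast-like cells were called lower for *Angpt2*, 15.2 CPM (11.1 to 20.3) and 5.08 CPM (3.92 to 6.49), for a log2 ratio of -1.58 (-2.15 to -1.0030).

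Both angiopoietin ligands met in the pericyte-like cells. A UMI of both *Angpt1* and *Angpt2* was found in 52.6% (43.1 to 61.9) of them under room air and 36.7% (29.6 to 44.2) under hyperoxia, and at 2000 UMIs per cell in 12.1% (6.76 to 19.4) and 6.15% (3.11 to 10.7). In gCap-like cells *Angpt2* and its receptor gene *Tek* were found together in 9.57% (7.41 to 12.1) and 5.16% (3.83 to 6.78), and when thinned in 1.96% (1.02 to 3.39) and 0.332% (0.0685 to 0.967).

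**Figure D4:**
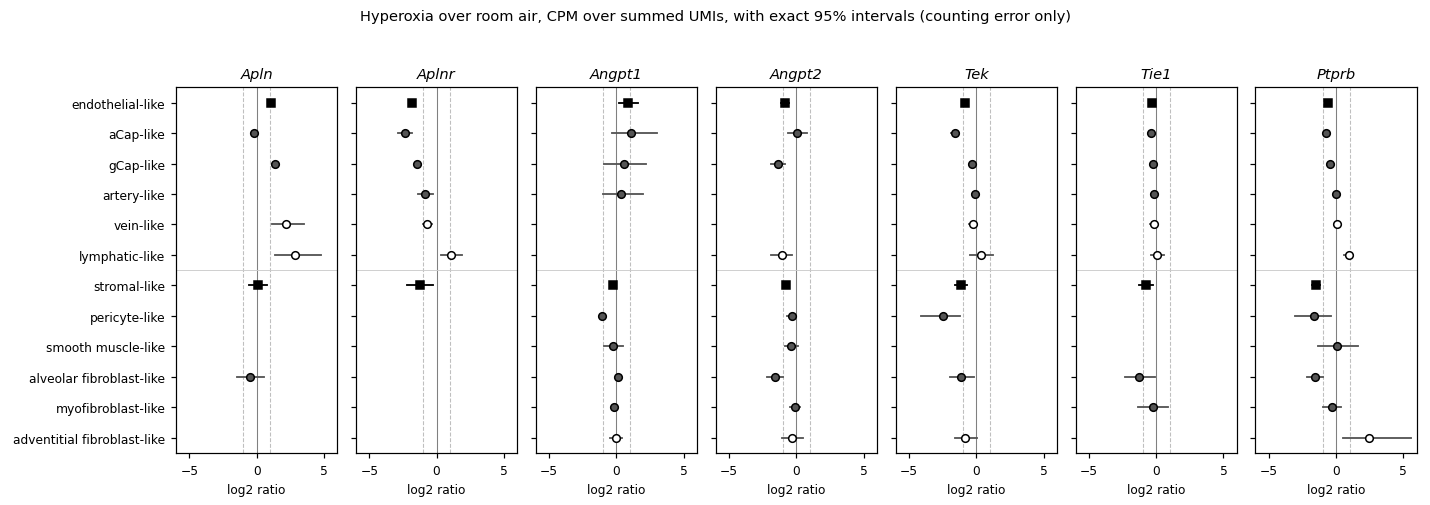
Log2 ratio of hyperoxia over room air for each gene in the EC-like and stromal-like cells (squares) and their types (circles; open where a library has under 50 cells), with exact 95% intervals for counting error; dashed lines mark a log2 ratio of -1 and 1, and types with under 20 UMIs or with 0 UMIs in a library are left out. *Apln* lies above 0 in gCap-like and below 0 in aCap-like cells, *Aplnr* below 0 in all but the lymphatic-like cells among EC-like types, and *Tie1* within 1 of 0 in every EC-like type.

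*Tek* (ENSMUSG00000006386, chromosome 4, 94739289 to 94874976, plus strand) encodes TIE2. Artery-like cells had 533 CPM (472 to 599) under room air and 490.3 CPM (455 to 528) under hyperoxia, and gCap-like cells 503 CPM (484 to 523) and 394 CPM (381 to 408). These were the highest of the 16 types in both libraries, and their intervals overlapped in room air but not in hyperoxia. In aCap-like cells *Tek* was at 115 CPM (97.2 to 135) and 38.8 CPM (34.8 to 43.1). The log2 ratio was -0.12 (-0.32 to 0.09) in artery-like cells, -0.35 (-0.43 to -0.28) in gCap-like cells and -1.57 (-1.85 to -1.28) in aCap-like cells. Of these 3 types, the one with the least *Tek* in room air thus had the largest ratio in size. Over all EC-like cells *Tek* was at 420.3 CPM (406 to 435) and 239 CPM (233 to 246), or a log2 ratio of -0.81 (-0.88 to -0.75), of which levels alone gave -0.35 and makeup alone -0.38.

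Among the aCap-like clusters, cluster 9 had *Tek* at 131 CPM (111 to 155) in 107 room air cells and 37.4 CPM (18.7 to 66.9) in 31 hyperoxia cells, for a log2 ratio of -1.81 (-2.85 to -0.93). Within the gCap-like clusters it was -0.61 (-1.04 to -0.20) in cluster 2, 0.02 (-0.31 to 0.36) in cluster 5 and -0.39 (-0.75 to -0.02) in cluster 11. Clusters 1 and 3, which held most hyperoxia aCap-like cells, had 50.01 CPM (44.4 to 56.2) and 10.7 CPM (6.92 to 15.8) in hyperoxia. Thus the hyperoxia aCap-like clusters themselves differed in *Tek*. The aCap-like cells with a *Tek* UMI had a summed gCap marker level of 3492 CPM against 2159.6 CPM without in room air, and 4318 against 3494 CPM in hyperoxia. Outside the endothelium, pericyte-like cells had *Tek* at 19.6 CPM (12.6 to 29.2) and 3.45 CPM (1.27 to 7.51), or a log2 ratio of -2.51 (-4.09 to -1.18) on 24 and 6 UMIs. The 8 EC markers in those cells summed to 115 CPM under room air and 136 CPM under hyperoxia, with none at 0. *Ptprb* in the same cells was at 14.7 CPM (8.73 to 23.3) and 4.5999 CPM (1.99 to 9.06), and the 92 room air cells of pericyte-like cluster 11 held 20 of the 24 *Tek* UMIs and 17 of the 18 *Ptprb* UMIs. The part of EC RNA in these values was not tested. Adventitial fibroblast-like cells had 25.8 CPM (15.998 to 39.5) and 14.7 CPM (10.5 to 20.1).

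*Tie1* (ENSMUSG00000033191, chromosome 4, 118471191 to 118490061, minus strand), the partner of TIE2, was nearly even over the EC-like types. It was at 445 CPM (426 to 463) and 371 CPM (358 to 385) in gCap-like cells, 397 CPM (363 to 433) and 309 CPM (298 to 321) in aCap-like cells and 385 CPM (333 to 442) and 347 CPM (318 to 379) in artery-like cells. Neighbours in the order of levels overlapped within each library, but in hyperoxia the gCap-like and aCap-like intervals were apart. Over all EC-like cells the levels were 421 CPM (406 to 436) and 338 CPM (329.9 to 346), or a log2 ratio of -0.32 (-0.38 to -0.26), lower in hyperoxia but far from a call. The ratios of *Tie1* in gCap-like cells, -0.26 (-0.34 to -0.18), and aCap-like cells, -0.36 (-0.50 to -0.22), had overlapping intervals. Within the 5 capillary clusters shared by the libraries its ratio lay between -0.30 and -0.07, each with an interval that includes 0.

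*Ptprb* (ENSMUSG00000020154, chromosome 10, 116275523 to 116389535, plus strand) encodes VE-PTP, the phosphatase that acts on TIE2. Artery-like cells had 4469 CPM (4289 to 4654) under room air and 4533 CPM (4424 to 4645) under hyperoxia, and vein-like cells 4039.98 CPM (3834 to 4254) and 4284 CPM (4178 to 4391). The capillary types lay below, gCap-like cells with 2307 CPM (2266 to 2349) and 1722 CPM (1694 to 1751) and aCap-like cells with 397 CPM (363 to 433) and 231 CPM (221 to 241). The log2 ratio was -0.42 (-0.46 to -0.39) in gCap-like cells, -0.78 (-0.92 to -0.64) in aCap-like cells and 0.02 (-0.05 to 0.09) in artery-like cells. The pooled ratios of the capillary types were thus below 0 but short of a call, and the artery-like interval included 0. Within gCap-like clusters the ratio was 0.0050 (-0.15 to 0.16) in cluster 2, -0.17 (-0.31 to -0.02) in cluster 5 and -0.74 (-0.90 to -0.57) in cluster 11. Within aCap-like clusters it was -0.53 (-0.87 to -0.20) in cluster 9, 0.50 (-1.19 to 2.87) in cluster 4 and, on 11 room air cells, 0.98 (0.33 to 1.72) in cluster 1. The sign of the *Ptprb* ratio was thus not the same in all capillary clusters, a difference that was not tested. With finer clustering (resolution 2) the gCap-like log2 ratio was -0.0049 (-0.06 to 0.05). Over all EC-like cells *Ptprb* was at 2146 CPM (2113 to 2179) and 1432 CPM (1416 to 1449), or a log2 ratio of -0.58 (-0.61 to -0.56), of which levels alone gave -0.29 and makeup alone -0.33.

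The hyperoxia aCap-like clusters differed in *Ptprb* as well, with 309 CPM (294 to 323) in cluster 1 and 35.9 CPM (28.7 to 44.5) in cluster 3. Cluster 3 also had 0 *Aplnr* UMIs in its 239 hyperoxia cells, while its *Apln* was at 715 CPM (682 to 751) and its *Tie1* at 294 CPM (272 to 316). In cluster 1 *Apln* was at 559 CPM (540.2 to 579) and *Tie1* at 309.7 CPM (295 to 325). Cluster 3 thus had less *Tek*, *Ptprb* and *Aplnr* than cluster 1, while its *Apln* was higher and its *Tie1* overlapped.

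In the stromal-like cells *Ptprb* was called lower, 20.1 CPM (17.6 to 22.9) and 7.05 CPM (6.11 to 8.09), for a log2 ratio of -1.51 (-1.79 to -1.23). Of the 41 *Ptprb* UMIs in the alveolar fibroblast-like cells of room air, 31 lay in the 3 room air cells of cluster 1, which also held 10 of the 17 *Tek* UMIs. With no doublet removal the alveolar fibroblast-like log2 ratio of *Ptprb* turned from -1.58 to 0.43 (-0.41 to 1.37). The unnamed stromal-like cluster 15, led by EC genes, held 126 of the 233 room air *Ptprb* UMIs in 8 cells and 37 of the 202 hyperoxia UMIs in 4 cells. Without clusters 1 and 15, a choice made after their values were seen, stromal-like *Ptprb* was at 6.66 and 5.71 CPM, for a log2 ratio of -0.22 (-0.64 to 0.20). The stromal-like call of *Ptprb* thus rests mainly on 11 room air cells.

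Receptor and phosphatase were found in the same cells in the artery-like, vein-like and gCap-like types. Cells with all of *Tek*, *Tie1* and *Ptprb* were not counted. A UMI of both *Tek* and *Ptprb* was found in 88.7% (86.04 to 91.1) of gCap-like cells under room air and 87.9% (85.6 to 89.9) under hyperoxia, and in 93.2% (83.5 to 98.1) and 91.2% (85.4 to 95.2) of artery-like cells. Vein-like cells had 96.97% (84.2 to 99.9) and 98.2% (93.8 to 99.8), on 33 and 113 cells. At 2000 UMIs per cell the gCap-like shares were 59.5% (55.5 to 63.5) and 48.9% (45.6 to 52.2), and the artery-like shares 54.4% (40.7 to 67.6) and 67.9% (59.4 to 75.5). In aCap-like cells the thinned share with *Tek* and *Tie1* was 11.2% (6.26 to 18.1) under room air and 2.44% (1.55 to 3.64) under hyperoxia, while that with *Tie1* and *Ptprb* was 14.4% (8.76 to 21.8) and 13.04% (10.96 to 15.4). The share with both receptors was smaller in the aCap-like cells of hyperoxia, and the intervals of the share with *Tie1* and *Ptprb* overlapped.

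**Figure D5:**
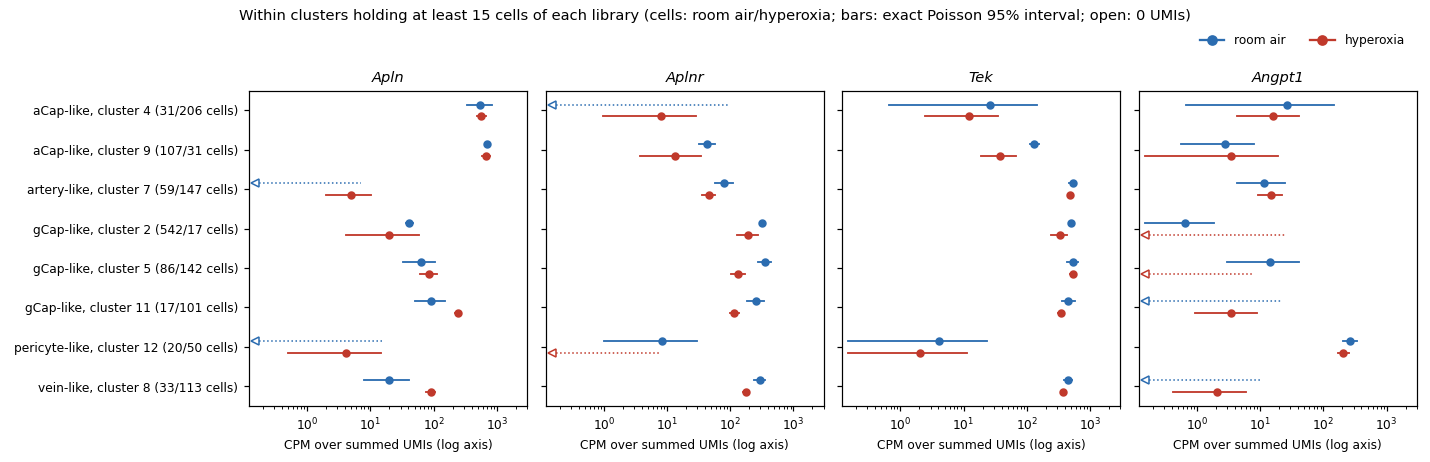
Levels of *Apln*, *Aplnr*, *Tek* and *Angpt1* in the clusters of 5 types that held at least 15 cells of each library, in CPM on a log axis with exact Poisson 95% intervals cut at the left edge; cell numbers stand beside each name. *Aplnr* is lower in hyperoxia in the 3 gCap-like clusters shown and in the artery-like and vein-like clusters, while *Angpt1* overlaps in pericyte-like cluster 12.

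Of 21 listed genes of the angiopoietin pathway, among them the adaptors *Dok2*, *Grb2*, *Grb7* and *Shc1*, the kinase genes *Pik3ca* and *Akt1*, and *Foxo1*, the transcription factor that TIE2 signalling holds out of the nucleus, 16 passed the level filter in EC-like cells. None was called, beside 1.82% and 2.42% of all genes, and the median log2 ratio was -0.08 against 0.02 over all genes. The largest ratio was that of *Itgb1*, an integrin subunit, at 1014 and 1383 CPM, for a log2 ratio of 0.45 (0.41 to 0.48). The smallest was that of *Foxo1*, at 154 and 78.5 CPM, for a log2 ratio of -0.97 (-1.08 to -0.87), just short of a call. In stromal-like cells, the main source of *Angpt1*, 15 of the 21 passed, none was called, and the ratios ran from -0.30 (-0.49 to -0.11) for *Pik3r2*, a PI3K subunit, to 0.83 (0.71 to 0.95) for *Svep1*, which encodes an extracellular ligand of TIE1.

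*Apln* and *Angpt2* are also known as genes of sprouting tip cells, and 12 other tip cell genes were therefore counted. Of the 9 that passed the filter in EC-like cells, 1 was called higher and 2 lower, beside 1.82% and 2.42% of all genes. Ratios were above 0 for 6 and below 0 for 3, with a median of 0.26. *Igfbp3*, an IGF binding protein, was at 3.66 and 23.1 CPM, for a log2 ratio of 2.66 (2.11 to 3.27), and passed the filter only through hyperoxia. *Esm1*, a secreted proteoglycan of tip cells, was at 50.8 and 15.9 CPM, for a log2 ratio of -1.68 (-1.89 to -1.46). *Cxcr4*, a chemokine receptor, was at 52.8 and 11.9 CPM, for a log2 ratio of -2.15 (-2.38 to -1.92). Genes of this list were thus called in both directions.

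The genes whose pattern was most like each member were named by Pearson's correlation of log2(CPM + 1) over 32 points, 16 types in 2 libraries that share depth and preparation, among 7737 genes that reached 50 CPM in a type. For *Apln* these were *Ackr2*, *Edil3* and *Prx* (r = 0.91, 0.91 and 0.90). *Aplnr* was most like *Grrp1*, *Tek* and *Adgrl4* (r = 0.96, 0.95 and 0.94). *Angpt1* was most like *Hunk*, *Gucy1a3* and *Lamb1* (r = 0.93, 0.92 and 0.92), and *Angpt2* like *Klhl23*, *Enpp2* and *Smtn* (r = 0.94, 0.93 and 0.92). For *Tek* the list was *Ptprb*, *Acer2* and *Clec14a* (r = 0.96, 0.96 and 0.95), for *Ptprb* it was *Acer2*, *Clec14a* and *Tek* (r = 0.97, 0.96 and 0.96), and for *Tie1* it was *Sox17*, *Arhgef15* and *Fgd5* (r = 0.98, 0.97 and 0.97). Members of the angiopoietin system thus stood in each other's lists for *Tek* and *Ptprb*, and *Tek* in that of *Aplnr*.

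Other measures differed between the libraries along with these values, and their part in the results was not tested. The 12 genes of the tissue dissociation response summed to 5706 CPM under room air and 6934 CPM under hyperoxia in EC-like cells. All 12 had a log2 ratio above 0 there, and none was called. In stromal-like cells they summed to 7597 and 11062 CPM, with 11 above 0 and none called. *Xist*, the X inactivation RNA of female cells, was at 261 and 371 CPM in EC-like cells and 180.4 and 438 CPM in stromal-like cells, and *Apln* lies on the X chromosome. *Xist* was listed with Y-linked genes, 5 sex genes in all. Of these, 3 had a log2 ratio above 0 and 2 below 0 in EC-like and in stromal-like cells. In aCap-like cells all 5 were above 0, the Y-linked genes included. The sex makeup of the pools was not tested. The 5 erythroid markers summed to 7157 and 3076 CPM in aCap-like cells and to 49.0 and 163 CPM in gCap-like cells, with none at 0. In the EC-like cells, 89 of room air and 179 of hyperoxia lay in clusters without a name, and 48 cycling cells led by EC genes fell into the lymphocyte-like group, where *Ptprb* reached 132 and 34.7 CPM.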

How the data were processed

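Single cells from whole lung were captured on the 10x Genomics platform, and the authors deposited raw counts of UMIs per gene and barcode for 1 library per group. They aligned reads with Cell Ranger, for which the sources give versions 2.1.1 (submitters' processing notes) and 3.1.0 (matrix headers) and the extract protocol another, so the version used is uncertain, and the genome build is mm10 (GRCm38). The total was 39593888 UMIs in room air and 111934936 in hyperoxia.

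Barcodes with fewer than 500 genes (345 and 1026) or more than 20% mitochondrial UMIs (80 and 486) were removed, then simulated-doublet scoring removed 129 and 1239. Counts were scaled to 10000 per cell, and Leiden clustering (resolution 1, 2000 variable genes, 30 components, 20 neighbours, no batch correction) left out the 7 genes, the lists of pathway and tip cell genes, mitochondrial and sex genes. Clusters were named from fixed markers and left unnamed otherwise. UMIs were summed per type and library, with exact Poisson, conditional (ratios) and Clopper-Pearson (shares) 95% intervals. Where a count was 0, the upper bound of the exact Poisson interval gave the limit. Shares were thinned to 2000 UMIs per cell. The ratio and its interval were checked on counts simulated from the EC-like sums. With 1 library per group no test was run.

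The genes named in the text are the 7 members, the 3 genes most like each member, and from each list those called in EC-like cells (stromal-like for *Angpt1*) or, with none called, those with the highest and lowest ratio. The members and lists were chosen with earlier results of these data known. The authors' figures, comparisons and marker tables were not used. Tools were Python 3.11.15, numpy 2.4.6, scipy 1.17.1, pandas 2.3.3, scikit-learn 1.9.0, igraph 0.11.9, leidenalg 0.10.2 and matplotlib 3.10.9.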

Additional observations from a re-analysis of the deposited data

Results flagged for a closer look

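The log2 ratio of *Apln* between hyperoxia and room air had opposite signs in the capillary types, 1.35 (1.14 to 1.57) in gCap-like cells and -0.22 (-0.32 to -0.12) in aCap-like cells. With 1 library per group the difference between the types was not tested. In the aCap-like clusters shared by the libraries the ratio was -0.02 (-0.25 to 0.21) in cluster 9 and 0.04 (-0.63 to 0.78) in the shallow cells of cluster 4, both with intervals that include 0. All intervals cover counting error only.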

How the results depend on the processing

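Of 36 log2 ratios of the 7 genes, each computed under 11 alternatives (10 for *Ptprb* in pericyte-like cells), 28 kept 1 sign under all of them. No paired analysis was possible because each group had 1 library, and for the same reason leaving out a replicate could not be done. Values of *Angpt2* in EC-like cells and of *Tek* and *Ptprb* in stromal-like cells rest on few UMIs. Where a ratio below moved, the cause was not tested.

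Removing 2 times the expected doublets gave, in EC-like cells, 1.19 for *Apln*, -1.92 for *Aplnr*, -0.88 for *Tek* and -0.81 for *Ptprb*, and -0.58 for *Angpt1* in pericyte-like cells. With only cells free of UMIs of the other lineage, EC-like values were 1.26 for *Apln*, -0.088 for *Angpt2* and -0.69 for *Ptprb*, gCap-like *Apln* was 1.72 and gCap-like *Angpt2* -0.68, and artery-like *Aplnr* reversed from -0.83 to 0.70. Means over single cells gave -1.97 for *Aplnr* and -0.74 for *Ptprb* in EC-like cells and -0.35 for *Angpt1* in stromal-like cells. TMM factors gave -0.73 for *Tek*, -0.24 for *Tie1* and -0.50 for *Ptprb* in EC-like cells. With no filter on cells, EC-like *Ptprb* was -0.61 and gCap-like *Apln* 1.11. With no doublet removal, EC-like *Apln* was 0.99, below the size of a call, aCap-like *Tek* -0.94, likewise, EC-like *Ptprb* -0.66, aCap-like *Apln* -0.32, and alveolar fibroblast-like *Ptprb* reversed from -1.58 to 0.43. Resolution 0.5 gave 1.10 for gCap-like *Apln*, and resolution 2 gave 0.69 for *Apln* and -1.58 for *Aplnr* in gCap-like cells. Clustering each library alone gave 1.06 for gCap-like *Apln* and -1.33 for pericyte-like *Angpt1*. Chosen after seeing the data, gCap-like *Apln* without cluster 11 was 1.08, and stromal-like *Ptprb* without clusters 1 and 15 was -0.22, from -1.51. Over every gene with at least 1 UMI in both libraries, 4.77% of genes were called higher and 12.8% lower in EC-like cells, against 1.82% and 2.42% with the level filter.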
